A study of Mus musculus with 48 samples.

Results

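Livers collected at ZT20 from mice lacking Bmal1 in adipocytes were compared with livers collected at the same time from WT mice. The libraries were taken by their labelled genotype and time, 4 KO and 4 WT at ZT20, 8 of the 48 libraries of the series, and each was made from 1 mouse. ZT is the time in hours after lights-on of the housing schedule. All 8 mice were female C57BL/6J, held on a 12 h light and 12 h dark schedule, then kept in darkness for 1 day and deprived of food for 24 h before collection, so the WT mice were fasted as well. The Cre driver used to delete Bmal1 (symbol Arntl in the files) is not given in the sources used here, and the liver itself is not a targeted tissue in these mice. Ages at ZT20 were the same in both genotypes, 62.5, 38, 39.25 and 28.75 weeks for replicates 1, 2, 3 and 4. At the other 5 times of the series no mouse was younger than 38 weeks. Most of those mice were older than replicates 2, 3 and 4 of ZT20. At ZT16, with 3 KO and 5 WT mice, ages also differed between genotypes. Comparisons of ZT20 with the other times are therefore mixed with age, and the part of age was not tested. The mice were housed in groups. KO mice weighed 20.15 ± 1.31 g and WT mice 20.35 ± 1.45 g (SD, n = 4 each; exact permutation test, two-sided p = 0.8, where 4 against 4 allows no p under 0.0286). At the other 5 times the KO mice were the heavier ones on average, by 1.41 to 5.55 g.

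Bmal1 pairs with CLOCK or NPAS2 to switch on genes that carry E-boxes, among them the period and cryptochrome genes, whose products then block the pair and close the loop of the circadian clock. The liver runs a clock of its own, and it also answers to feeding, fasting, temperature and hormones. During a fast, adipocytes release fatty acids that the liver oxidises and turns into ketone bodies, largely under the control of the nuclear receptor PPARalpha. A knockout confined to adipocytes leaves Bmal1 of the liver cells themselves in place.

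The 8 libraries held 12873535 to 13009797 counts each without Alb, and scaling factors ran from 0.96 to 1.08. Levels are given as CPM, counts scaled to the same library total, and differences as KO minus WT on the log2 scale with their standard error (SE). Libraries of the same genotype correlated with r of 0.928 to 0.983 across genes. Hepatocyte markers were abundant in all 8 libraries, with a summed level of 29610 to 37890 CPM in KO livers and 22970 to 39100 CPM in WT livers. Of the adipocyte markers only the hormone gene Lep was at 0 in all 8. The adipocyte list summed to 41.7 to 71.0 CPM in KO livers and 23.9 to 50.1 CPM in WT livers. Of the 8 libraries, 3 stood apart. KO replicate 1 held neutrophil and acute phase transcripts far above the other 7. WT replicate 2 and KO replicate 3 lay at one end of the first principal component, which took 50.9% of the variance (69.5 and 48.9 for them, and -55.9 for KO replicate 1), and they had the lowest slopes of level against the GC content of genes (-0.397 in KO replicate 3 and -0.611 in WT replicate 2, in log2 per 10 percentage points of GC, where the other 6 had slopes above 0). GC slopes averaged 0.137 ± 0.427 in KO and 0.0523 ± 0.474 in WT libraries (SD, n = 4 each; exact permutation test, two-sided p = 0.771).

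At ZT20 no gene passed the test. Of 13646 genes, 0 (0%) had an adjusted p under 0.05 by the edgeR quasi-likelihood test, Benjamini-Hochberg adjusted. DESeq2 and limma-voom also gave 0, and so did every other setting tried, including fits without the 3 libraries that stood apart. Without adjustment, 251 genes (1.84%) had p under 0.05, 118 of them higher and 133 lower in KO livers; DESeq2 gave 248 and limma-voom 242. At the other times this unadjusted share was 5.53%, 23.3%, 1.82%, 4.4% and 6.65% from ZT0 to ZT16 in order of time, and the adjusted test called 2 (0.0147%), 5 (0.0366%), 0, 0 and 3 (0.022%) genes. Every KO library lay below every WT library for 65 genes (0.476%) and above every WT library for 85 genes (0.623%). The median SE of a gene was 0.293 at ZT20 and 0.132 over the other 5 times together. A gene that misses the threshold here is therefore not shown to be equal in both genotypes, and the values below are given as measured, with adjusted p = 1.00 for each gene at ZT20 unless another value is stated.

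Of the 10 genes with the smallest p among those lower in KO livers, 7 did not overlap between genotypes, where 0.476% of all genes lay lower with no overlap; the 10 were picked by p in the same libraries, so nothing is read from this count. They included a feedback phosphatase, an AP-1 subunit and genes of the extracellular matrix. Dusp1, which encodes a phosphatase that switches off MAP kinases and is induced by stress and glucocorticoids, lies at chr17:26642535-26645464 in build mm9. Its level was 43.7, 34.6, 28.02 and 30.7 CPM in KO livers (replicates 1 to 4), against 74.8, 94.2, 138 and 123 CPM in WT livers. All 4 KO mice were below all 4 WT mice, and the mean was 34.3 ± 6.83 CPM in KO and 108 ± 28.6 CPM in WT livers (SD, n = 4 each). The log2 difference was -1.65 with an SE of 0.42 (95% interval -2.51 to -0.79; adjusted p = 1.00, edgeR quasi-likelihood, Benjamini-Hochberg).

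Junb, a subunit of the AP-1 transcription factor, was at 20.3, 12.2, 9.42 and 12.4 CPM in KO livers and at 21.7, 30.6, 51.2 and 71.0 CPM in WT livers. The genotypes did not overlap, but the oldest mice, KO replicate 1 and WT replicate 1, lay close to each other; the log2 difference was -1.68 (SE 0.46). Fos, the AP-1 partner of the Jun proteins, was at 2.131, 0.676, 0.540 and 0.461 CPM in KO livers and at 1.24, 1.07, 6.29 and 8.46 CPM in WT livers, a log2 difference of -2.16 (SE 0.60). For Fos the genotypes overlapped, because KO replicate 1 was above WT replicates 1 and 2. Cxcl1, a chemokine that attracts neutrophils, was at 1.03, 2.03, 1.31 and 1.23 CPM in KO livers against 2.56, 3.06, 7.65 and 9.10 CPM in WT livers, with a log2 difference of -1.99 (SE 0.48). Its 8 values did not overlap between genotypes, and WT replicates 3 and 4 were the highest, as they were for Junb and Fos.

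**Figure D1:**
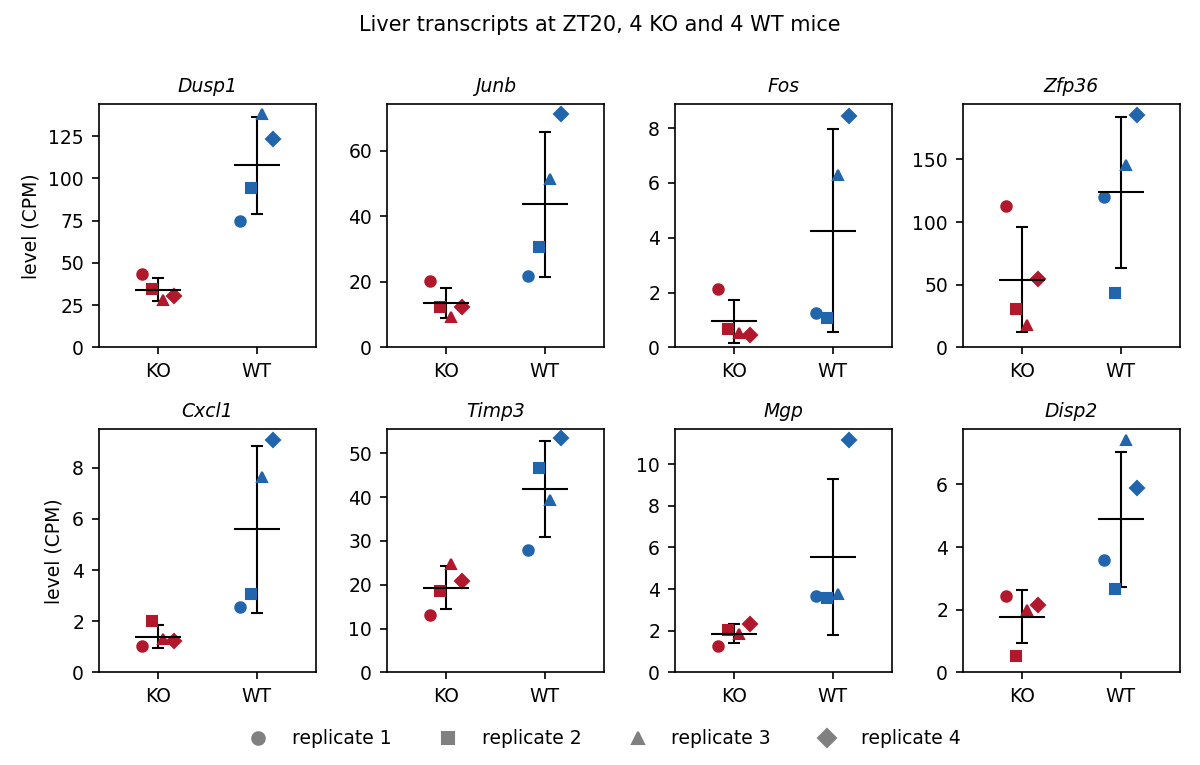
Levels (CPM, linear axis from 0) of 8 genes in the liver of each mouse at ZT20, KO left and WT right, with 1 symbol per replicate number, the mean as a bar and the SD as whiskers (n = 4 each). Dusp1, Junb, Cxcl1, Timp3, Mgp and Disp2 show no overlap between genotypes, whereas Fos and Zfp36 overlap, with KO replicate 1 among the WT mice in both and KO replicate 4 above WT replicate 2 in Zfp36; none of the 8 passed the adjusted test.

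The upstream sequences of Dusp1, Junb and Fos are shown because these 3 genes were low together in KO livers, and that of Ciart, named Gm129 in the files, because it is the E-box gene of the clock described further on. They are the 250 bases before the RefSeq start on the gene's own strand, from build GRCm38.p6, which is not the mm9 build of the counts. Capitals mark TGACG on either strand, the core of the cAMP response element bound by CREB and related factors, and the E-box CACGTG.
Dusp1, chr17:26508473-26508722, minus strand: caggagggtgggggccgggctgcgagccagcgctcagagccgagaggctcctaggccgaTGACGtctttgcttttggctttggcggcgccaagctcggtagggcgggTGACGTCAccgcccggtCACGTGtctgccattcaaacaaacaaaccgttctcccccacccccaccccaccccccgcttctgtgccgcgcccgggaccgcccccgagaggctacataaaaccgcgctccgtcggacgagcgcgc
Junb, chr8:84978749-84978998, minus strand: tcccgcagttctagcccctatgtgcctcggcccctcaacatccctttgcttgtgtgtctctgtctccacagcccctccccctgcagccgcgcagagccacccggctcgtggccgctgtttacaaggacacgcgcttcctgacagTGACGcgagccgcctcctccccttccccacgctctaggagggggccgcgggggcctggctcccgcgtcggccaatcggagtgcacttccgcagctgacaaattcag
Fos, chr12:85473640-85473889, plus strand: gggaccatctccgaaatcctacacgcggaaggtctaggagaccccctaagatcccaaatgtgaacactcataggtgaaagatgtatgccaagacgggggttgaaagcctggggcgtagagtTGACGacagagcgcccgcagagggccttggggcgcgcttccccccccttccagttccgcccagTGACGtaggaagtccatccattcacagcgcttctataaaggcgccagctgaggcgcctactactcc
Ciart, chr3:95882229-95882478, minus strand: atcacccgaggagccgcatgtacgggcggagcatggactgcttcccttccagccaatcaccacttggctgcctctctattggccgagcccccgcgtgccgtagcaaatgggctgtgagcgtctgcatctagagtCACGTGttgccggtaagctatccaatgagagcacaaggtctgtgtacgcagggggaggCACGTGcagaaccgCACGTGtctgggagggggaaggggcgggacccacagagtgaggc
Dusp1 held TGACG at 3 positions, 2 of which overlap on opposite strands, together with 1 E-box; Junb held 1 TGACG and Fos 2. Ciart held 3 E-boxes and no TGACG. Among 32851 such windows of the RefSeq promoter table, 17.8% held at least 1 TGACG on either strand and 6.02% at least 1 CACGTG, while 0.0609% held 3 or more CACGTG. These are matches of letters, and binding was not measured.

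The list of immediate early genes, which respond within minutes to growth factors, stress and hormones, had 13 of its 14 members measured. At ZT20 0 of them passed the adjusted test. Of the 13, 10 were below 0 in KO minus WT, where 52% of all 13646 genes were, and the list's median was -0.56 against -0.01 over all genes tested. An unadjusted p under 0.05 was reached by 5 members, Fos, Junb, Btg2, Zfp36 and Jun, each lower in KO livers, where 0.975% of all genes tested were lower at that level. Btg2, an antiproliferative gene, was at 22.6, 17.6, 12.4 and 19.9 CPM in KO livers and at 21.0, 26.7, 49.3 and 77.0 CPM in WT livers (log2 difference -1.26, SE 0.46), so that KO replicate 1 was above WT replicate 1. Zfp36, whose protein destabilises messages of inflammatory genes, was at 113, 30.7, 18.3 and 54.3 CPM in KO livers and at 120, 43.2, 146 and 185 CPM in WT livers (log2 difference -1.19, SE 0.51). Jun was at 31.6, 11.5, 15.8 and 13.3 CPM in KO livers and at 23.7, 49.5, 36.1 and 48.3 CPM in WT livers (log2 difference -1.13, SE 0.54).

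Within the KO group, replicate 1 was the highest for Fos, Jun, Junb, Btg2 and Zfp36. The summed level of the immediate early list was 121.5 to 384.3 CPM in KO livers and 240.9 to 622.1 CPM in WT livers. The list's median was -1.23 without KO replicate 1, -0.34 without KO replicate 3 and -0.35 without WT replicate 4. Ier3, Atf3 and Fosl2 were the 3 members above 0, at 0.11, 0.19 and 0.18. Nr4a1, an immediate early nuclear receptor gene outside the naming rule and picked after its values were seen, was at 2.84, 1.73, 1.24 and 0.691 CPM in KO livers and at 1.90, 3.133, 2.34 and 26.6 CPM in WT livers, where WT replicate 4 alone was high.

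Among the further genes of the 10 lowest by p, Timp3 and Mgp act in the extracellular matrix. Timp3, an inhibitor of matrix metalloproteinases, was at 13.2, 18.6, 24.7 and 21.0 CPM in KO livers and at 27.8, 46.6, 39.3 and 53.5 CPM in WT livers (log2 difference -1.11, SE 0.29). Mgp, which encodes an inhibitor of calcification, was at 1.26, 2.03, 1.85 and 2.304 CPM in KO livers and at 3.65, 3.59, 3.79 and 11.2 CPM in WT livers (log2 difference -1.57, SE 0.43, and -0.99 without WT replicate 4). Both genes had no overlap between genotypes. Kalrn, a guanine nucleotide exchange factor, was at 16.4, 19.5, 12.9 and 16.97 CPM in KO livers and at 27.2, 28.05, 28.4 and 25.1 CPM in WT livers, and its WT values were close together (27.2 ± 1.48 CPM, SD, n = 4). Its log2 difference was -0.73 (SE 0.20), with no overlap between genotypes. Disp2 (-1.45, SE 0.42) did not overlap either, while Dcaf12l1 (-1.01, SE 0.28) did. The symbol 7SK stands on 43 lines of the table, so its line (-3.54, SE 0.91) is uncertain, and its difference came from WT replicate 2, at 38.3 CPM against 0.461 to 2.36 CPM in the other 7 libraries.

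Markers of stellate cells and fibroblasts, the matrix-forming cells of the liver, are given beside these genes. Of the 11 measured, 9 were below 0 (median -0.42), 0 passed the test or had an unadjusted p under 0.05, none was at 0 in all 8 libraries, and the summed level was 233.8 to 636 CPM in KO livers and 370.5 to 692.5 CPM in WT livers. The median was -0.72 without KO replicate 3, -0.27 without KO replicate 1, -0.28 without WT replicate 2 and -0.21 without WT replicate 4. Dcn, a proteoglycan gene, was at 183, 142, 459 and 152 CPM in KO livers and at 233, 518, 330 and 265 CPM in WT livers (log2 difference -0.52, SE 0.44). KO replicate 3 lay within the WT range, and the 3 other KO mice were below all WT mice. In bulk liver, fewer cells of a type and less RNA per cell cannot be told apart, and the part of these cells in the matrix genes was not tested.

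Among the 10 genes with the smallest p that were higher in KO livers, 4 did not overlap between genotypes, where 0.623% of all genes lay higher with no overlap; the 10 were picked by p in the same libraries, so nothing is read from this count. The log2 difference was under 0.5 in 5 of the 10. Acot8, a peroxisomal acyl-CoA thioesterase, was at 45.9, 28.3, 29.5 and 40.02 CPM in KO livers and at 25.8, 22.1, 30.9 and 23.8 CPM in WT livers (log2 difference 0.49, SE 0.17). Psmc2, an ATPase subunit of the proteasome, was at 142, 99.6, 130 and 127 CPM in KO livers and at 95.1, 74.8, 126 and 85.1 CPM in WT livers (0.39, SE 0.14). Hk3, the hexokinase of myeloid cells, was at 6.55, 4.58, 3.01 and 2.92 CPM in KO livers and at 1.83, 1.53, 1.93 and 2.44 CPM in WT livers (1.14, SE 0.41), with no overlap. Ripk3, a kinase of necroptosis, was at 2.45, 1.95, 1.24 and 2.53 CPM in KO livers and at 1.24, 0.841, 0.483 and 1.505 CPM in WT livers (0.99, SE 0.37), with overlap. Fars2, the mitochondrial phenylalanyl-tRNA synthetase, differed by 0.41 (SE 0.14). The other 5 were Gm6767 (1.07, SE 0.30), 2610019F03Rik (0.45, SE 0.15), BC017643 (0.46, SE 0.16), 1700112E06Rik (0.88, SE 0.33) and the acute phase gene Orm2. Cyp2e1, which oxidises ethanol and ketones, was picked after its values were seen as an abundant gene with no overlap, at 10725, 12580, 11086 and 10602 CPM in KO livers and at 10352, 6418, 8621 and 9018 CPM in WT livers. Its log2 difference was 0.39 (SE 0.28), and its 95% interval, -0.19 to 0.96, included 0.

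Genes of fat oxidation and ketogenesis leaned to the KO side by small amounts. Of 28 PPARalpha targets and related genes, all measured, 27 were above 0, where 48% of all genes were, and 0 passed the adjusted test or had an unadjusted p under 0.05. Their median log2 difference was 0.29, and at the other 5 times it was 0.08. Angptl4, a secreted inhibitor of lipoprotein lipase and the member with the smallest p, was at 546, 295, 539 and 379 CPM in KO livers and at 346, 376, 350 and 178 CPM in WT livers (log2 difference 0.49, SE 0.26). Its genotypes overlapped, with WT replicate 4 low. Cpt1a, the gate for long-chain fatty acids into mitochondria, differed by 0.15 (SE 0.28) and Ppara itself by 0.20 (SE 0.41).

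The members of this list share their libraries and are not independent of each other. Its summed level was 34130 to 44020 CPM in KO livers and 23830 to 39330 CPM in WT livers, so the genotypes overlapped. The median was 0.44 without WT replicate 3, which had the highest summed level of the WT mice, and 0.21 without WT replicate 2. The list of lipid uptake and lipid droplet genes behaved in a like way, with 13 of 16 measured members above 0, 0 called, and a median of 0.28 (0.14 without WT replicate 4). Plin2, which coats lipid droplets, was at 1957, 1237, 2273 and 1848 CPM in KO livers and at 1229, 956, 1542 and 814 CPM in WT livers (log2 difference 0.69, SE 0.35), and KO replicate 2 lay among the WT mice. Cidec, a droplet fusion protein also made by adipocytes, was at 56.4, 10.5, 10.96 and 17.1 CPM in KO livers and at 6.21, 5.43, 18.5 and 6.45 CPM in WT livers (1.38, SE 0.87; 0.49 without KO replicate 1). Cd36, a fatty acid transporter, was at 190, 442, 520 and 291 CPM in KO livers and at 223, 459, 314 and 155 CPM in WT livers (0.33, SE 0.35), and its difference ran from 0.095 without KO replicate 3 to 0.64 without WT replicate 2. Gluconeogenic genes did not lean the same way: 11 of 15 members of that list were below 0, with a median of -0.06, and Pck1, the enzyme that commits carbon to glucose, was at 4496, 2976, 2213 and 3466 CPM in KO livers and at 3932, 2470, 3990 and 5025 CPM in WT livers (-0.23, SE 0.41).

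The targeted gene gives no check of the labels here, because liver RNA comes mostly from cells in which it was not deleted. Arntl (chr7:120350979-120457636, mm9) was at 29.3, 37.04, 32.2 and 30.03 CPM in KO livers and at 33.1, 29.3, 37.1 and 29.6 CPM in WT livers. The 2 sets of values covered the same range, with means of 32.1 ± 3.49 CPM in KO and 32.3 ± 3.66 CPM in WT livers (SD, n = 4 each), and the log2 difference was -0.01 (SE 0.38, 95% interval -0.77 to 0.76). Among the other activators of the clock, Clock differed by -0.19 (SE 0.34) and Rora by -0.21 (SE 0.33).

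Npas2, the relative of CLOCK that can replace it, was the clock activator that stood out at the other times. Over ZT0 to ZT16 it was higher in KO livers by 1.95 (SE 0.31, adjusted p = 0.0002, edgeR quasi-likelihood, Benjamini-Hochberg). At ZT20 it was at 10.5, 6.61, 3.63 and 6.22 CPM in KO livers and at 11.2, 0.841, 5.56 and 4.73 CPM in WT livers, a log2 difference of 0.27 (SE 0.49). The genotypes overlapped throughout, and the low value was that of WT replicate 2. The difference between ZT20 and the other times, -1.69 (SE 0.58), did not pass (adjusted p = 0.896, edgeR quasi-likelihood, Benjamini-Hochberg). From ZT0 to ZT20 in order of time, Npas2 in KO minus WT was 0.72, -1.28, 4.07, 3.36, 2.89 and 0.27.

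Most genes of the repressor arm of the clock had values below 0 in KO minus WT, none of them called. Of the 10 period, cryptochrome, BHLHE, REV-ERB and Gm129 genes, 9 were below 0, where 52% of all genes were, with a median of -0.32. Of the 10, 0 passed or had an unadjusted p under 0.05. The summed level was 238.1 to 338.9 CPM in KO livers and 261.8 to 388.4 CPM in WT livers, so the genotypes overlapped. Gm129, whose product CHRONO represses CLOCK and BMAL1 and whose E-boxes are marked above, was at 7.03, 2.33, 4.01 and 2.61 CPM in KO livers and at 7.96, 3.52, 6.29 and 4.51 CPM in WT livers (-0.48, SE 0.67). The genotypes overlapped, and replicate 1 was the highest mouse of both. At the other 5 times Gm129 was lower in KO livers, with KO minus WT at -1.44 (SE 0.31, adjusted p = 0.00863, edgeR quasi-likelihood, Benjamini-Hochberg), and the difference between ZT20 and those times, 0.96 (SE 0.74), did not pass (adjusted p = 0.896, same test). Bhlhe40, another E-box repressor, was at 79.3, 67.3, 35.4 and 59.1 CPM in KO livers and at 104, 47.7, 82.8 and 109 CPM in WT livers (-0.51, SE 0.38), against -0.68 (SE 0.17) at the other times, where it was called with all 40 libraries and in 35 of the 40 fits that left 1 out (adjusted p = 0.0752 without ZT16 KO replicate 3, edgeR quasi-likelihood, Benjamini-Hochberg). Per1 differed by 0.26 (SE 0.60), Per2 by -0.18 (SE 0.29), Per3 by -0.64 (SE 0.34), Cry1 by -0.20 (SE 0.25), Cry2 by -0.06 (SE 0.33), Nr1d1 by -0.87 (SE 0.87), Nr1d2 by -0.45 (SE 0.36) and Bhlhe41 by -0.16 (SE 0.78). Each of these values was smaller than 2 SE, and Per1, Cry2, Nr1d2 and Bhlhe41, like Arntl, Npas2, Clock and Rora, took the opposite sign without at least 1 of the 8 mice. The output genes of the PAR bZIP group had a median of -0.12 over 7 genes (-0.28 without KO replicate 1 and 0.0093 without WT replicate 1), with Tef at -0.16 (SE 0.20) and Dbp at -0.31 (SE 0.54).

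**Figure D2:**
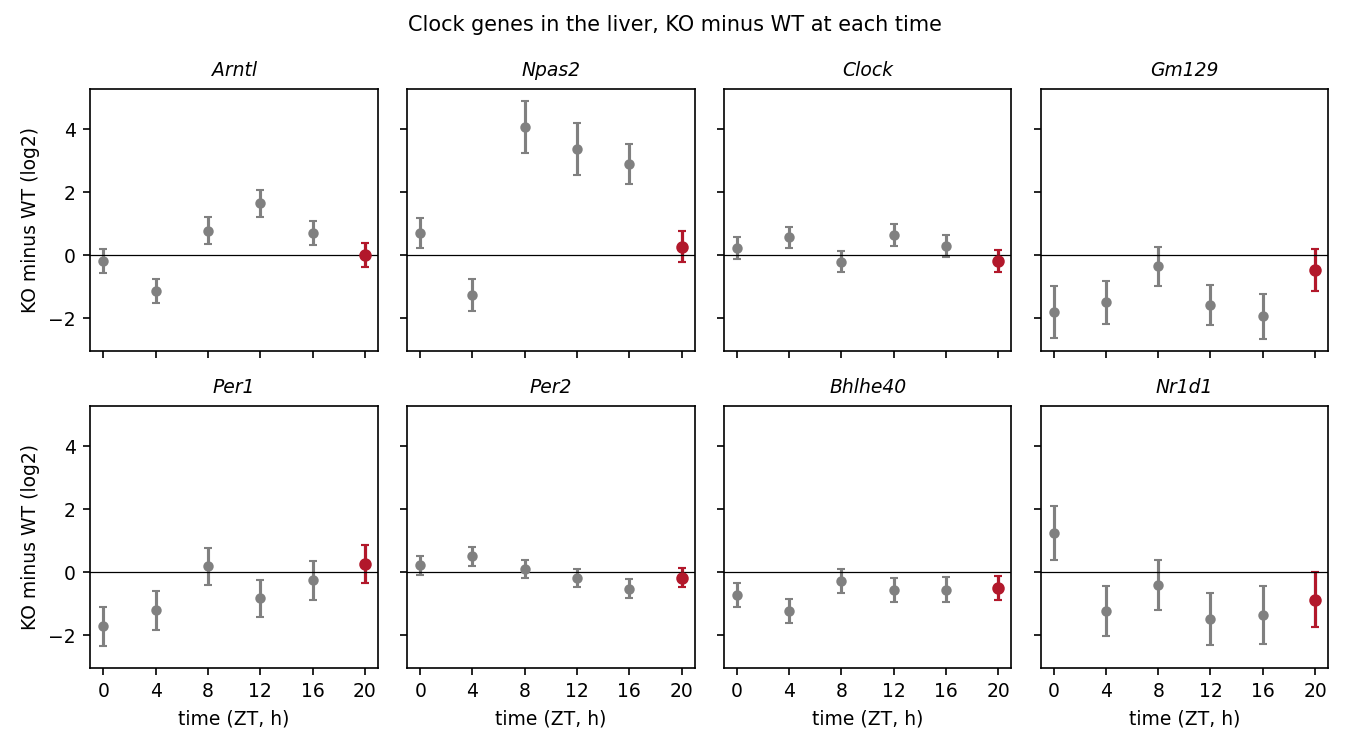
KO minus WT differences (log2, vertical axis, whiskers 1 SE) of 8 clock genes at each time (ZT in hours, horizontal axis), with ZT20 in red and the other 5 times in grey. At ZT20 the whiskers of Arntl, Npas2 and Per1 include 0, whereas Npas2 lay at 4.07, 3.36 and 2.89 at ZT8, ZT12 and ZT16. Its mean in WT livers was 0.074, 0.0995 and 0.31 CPM at those times, so these values rest on few counts.

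The mice of the other 5 times gave a set of genes chosen without any ZT20 library. Over those times 266 genes (1.95%) differed between genotypes by the edgeR quasi-likelihood test, Benjamini-Hochberg adjusted, 135 higher (0.989%) and 131 lower (0.96%) in KO livers. The spread in that fit is shared with the ZT20 libraries, but the differences come from other mice. Of the 131 genes lower at the other times, 96 (73.3%) were also below 0 at ZT20, 19 had an unadjusted p under 0.05 there in the same direction, and 7 did not overlap between genotypes; among all 7086 genes below 0 elsewhere, 90 and 37 did so. Their median was -0.78 at the other times and -0.28 at ZT20. Of the 135 genes higher at the other times, 77 (57%) were above 0 at ZT20, 1 had an unadjusted p under 0.05 in the same direction (Nrxn3, 2.16, picked after its values were seen), and 0 were without overlap. Their median was 0.55 at the other times and 0.04 at ZT20. Over all tested genes, the sign was the same at ZT20 for 42.4% of the 6560 genes above 0 elsewhere and for 46.8% of the 7086 genes below 0 elsewhere.

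Single libraries of the other times had a large say in which genes formed these sets. Left out in turn, the 40 libraries gave 95 to 1108 called genes, namely 1108 without ZT4 KO replicate 1, 758 without ZT16 WT replicate 2, 653 without ZT16 KO replicate 2, 593 without ZT16 KO replicate 1, 475 without ZT8 WT replicate 2, 177 without ZT8 WT replicate 3, 164 without ZT8 WT replicate 4, 155 without ZT4 KO replicate 3 and 95 without ZT16 KO replicate 3. The share of the lower genes that was also below 0 at ZT20 ran from 63.3% without ZT4 KO replicate 1 to 87.3% without ZT16 KO replicate 3, and their median at ZT20 from -0.51 without ZT16 KO replicate 3 to -0.09 without ZT4 KO replicate 1. For the higher genes the share ran from 41.4% to 65%, and the median at ZT20 from -0.04 without ZT4 KO replicate 1 to 0.10 without ZT16 KO replicate 3. The direction of the lower set at ZT20 was thus the same in all 40, and that of the higher set was not. Each of these fits kept the same ZT20 mice, so they cannot show how firm either direction is at ZT20. The genes of a set share their libraries and are not independent of each other. Medians of these sets without a ZT20 mouse are not given here. With body weight in the model, 46 genes were called at the other times, 18 higher and 28 lower; the 28 had a median of -0.53 at ZT20.

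**Figure D3:**
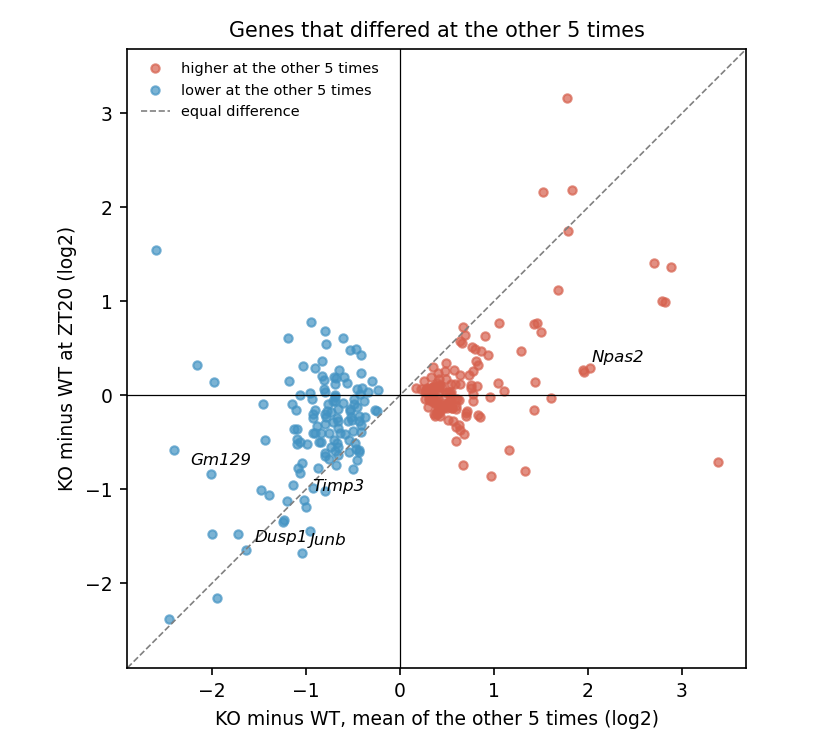
KO minus WT differences (log2) of the 266 genes called over the other 5 times, with the mean of those times on the horizontal axis and ZT20 on the vertical axis; red genes were higher and blue genes lower at the other times, and the dashed line marks equal differences. Dusp1, Timp3 and Junb lie near or below the dashed line, and the red genes centre near 0 at ZT20, with a median of 0.04.

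Dusp1, Timp3 and Fos had differences at ZT20 close to those at the other times. Dusp1 was -1.64 (SE 0.19) at the other times, where it was called (adjusted p = 1.21e-06, edgeR quasi-likelihood, Benjamini-Hochberg), and ZT20 departed from that by -0.01 (SE 0.46). Its KO minus WT difference was -1.57, -2.40, -1.53, -1.86, -0.84 and -1.65 from ZT0 to ZT20 in order of time. All 6 values were below 0. Timp3 was -1.02 (SE 0.13) at the other times, and ZT20 departed by -0.09 (SE 0.32). Fos was -1.95 (SE 0.28) at the other times, and ZT20 departed by -0.21 (SE 0.68). For Fos and Junb the difference was -0.06 and -0.04 at ZT16, the time before, and -2.16 and -1.68 at ZT20. Junb was -1.05 (SE 0.21), Jun -1.21 (SE 0.25) and Zfp36 -1.01 (SE 0.23) at the other times, and all 6 of these genes were called lower there. Dusp1, Timp3, Fos and Junb remained called at the other times without any 1 of the 40 libraries, with a largest adjusted p of 0.0137 for Junb (edgeR quasi-likelihood, Benjamini-Hochberg). Besides Dusp1, Timp3 and Junb, the genes called lower elsewhere and without overlap at ZT20 were Disp2, Ctnnbip1, Mxra8 and C7, the last a gene of the complement attack complex at 0.237, 0.225, 0.386 and 0.307 CPM in KO livers and 0.730, 0.459, 0.806 and 1.29 CPM in WT livers. Ctnnbip1, Mxra8 and C7 were named after their values were seen.

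Other genes that were called elsewhere had smaller values at ZT20, or one of opposite sign. Aim1l was -2.40 (SE 0.28) at the other times and -0.59 (SE 0.59) at ZT20. Rec8, a cohesin subunit of meiosis, was -2.01 (SE 0.24) at the other times and -0.84 (SE 0.53) at ZT20. Cldn1, a tight junction protein, was 0.59 (SE 0.12) at the other times and -0.49 (SE 0.26) at ZT20, at 27.2, 89.9, 54.0 and 71.5 CPM in KO livers and at 74.6, 93.0, 77.9 and 95.4 CPM in WT livers. Over all genes, 0 of 13646 (0%) departed at ZT20 from the other times by the edgeR quasi-likelihood test, Benjamini-Hochberg adjusted, whose smallest adjusted p was 0.348, and 575 (4.21%) had an unadjusted p under 0.05; DESeq2 called 4. The values of Aim1l, Rec8 and Cldn1 at ZT20 are therefore not shown to differ from those elsewhere.

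Interferon-responsive genes gave another such pair of values. At the other times the list's median was 0.37 and 8 of its 22 genes were called higher in KO livers, where 0.989% of all genes were. At ZT20 11 of the 22 were above 0, the median was -0.01 and 0 were called. Ifit1, an interferon-induced antiviral gene, was at 3.87, 12.8, 7.72 and 6.38 CPM in KO livers and at 6.72, 8.18, 6.12 and 10.2 CPM in WT livers (-0.02, SE 0.41), against 0.95 (SE 0.18) elsewhere. Gbp10, a guanylate-binding protein, was at 0.474, 4.73, 1.78 and 1.23 CPM in KO livers and at 2.26, 3.21, 2.18 and 1.58 CPM in WT livers (-0.16, SE 0.63), against 1.42 (SE 0.27) elsewhere. KO replicate 1 was the lowest KO mouse for both genes, and the list's median was 0.18 without KO replicate 1 and -0.25 without KO replicate 2.

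**Figure D4:**
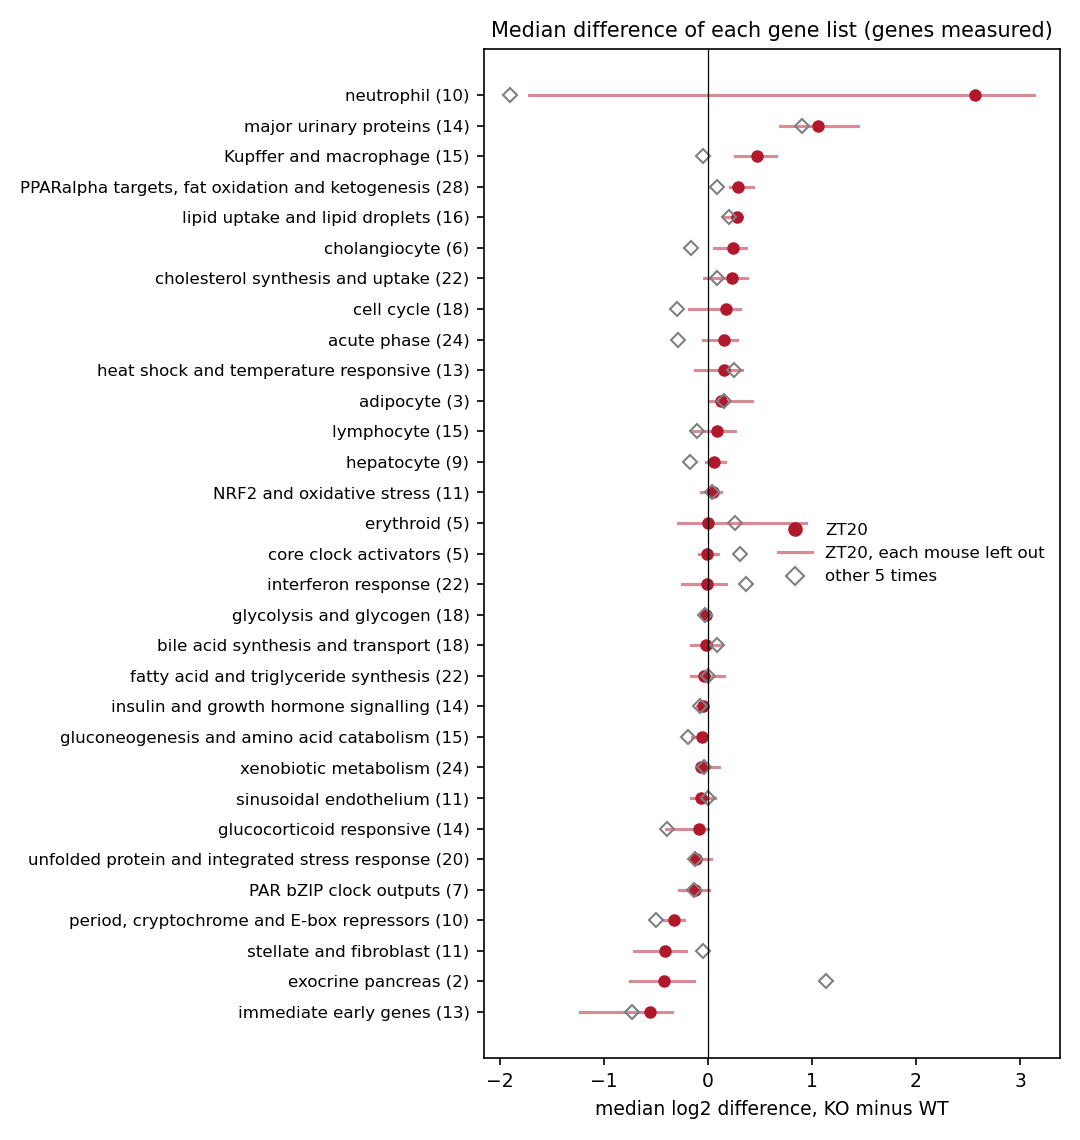
Median KO minus WT difference (log2, horizontal axis) of each gene list, with the number of genes measured in brackets; red dots show ZT20, red lines the range of the ZT20 median with each of the 8 mice left out, and open diamonds the other 5 times. The line of the neutrophil list crosses 0, with a median of -1.72 without KO replicate 1, while the lists of PPARalpha targets, Kupffer cells and immediate early genes stay on 1 side of 0.

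Transcripts of neutrophils were carried by 1 KO mouse. S100a8, which encodes a calcium-binding protein abundant in neutrophils, was at 129, 3.91, 2.32 and 3.07 CPM in KO livers and at 7.45, 3.59, 5.32 and 14.3 CPM in WT livers. Lcn2, a siderophore-binding protein of neutrophils that hepatocytes also make in the acute phase, was at 1174, 55.7, 27.2 and 22.0 CPM in KO livers and at 74.0, 12.6, 49.5 and 52.7 CPM in WT livers. KO replicate 1 was far above every other mouse, and the 3 other KO mice were within the WT range or below it. The granule genes Ltf, Camp, Ngp, Mpo and Elane had the same shape, with Mpo at 34.97 CPM in KO replicate 1 and at 0 to 0.461 CPM in the other KO livers, against 0 to 3.01 CPM in WT livers. All 10 measured neutrophil markers were above 0 (median 2.57), but the median was -1.72 and 8 of 10 were below 0 without KO replicate 1. Their summed level was 36.1 to 1747 CPM in KO livers and 23.4 to 114.5 CPM in WT livers.

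The acute phase genes that hepatocytes secrete upon inflammation were high in the same mouse. Saa1 was at 2346, 162, 30.3 and 68.4 CPM in KO livers and at 94.1, 26.1, 51.4 and 87.4 CPM in WT livers. Saa2 was at 1250, 61.5, 12.1 and 35.2 CPM in KO livers and at 47.8, 10.3, 19.7 and 47.3 CPM in WT livers, and these serum amyloid genes are similar enough for reads to be shared between them. Orm2, an acid glycoprotein, was at 1026, 57.0, 31.3 and 35.02 CPM in KO livers and at 59.9, 19.03, 37.3 and 34.7 CPM in WT livers. The list's median was 0.16 over 24 genes, and it was -0.05 without KO replicate 1, 0.28 without KO replicate 3 and 0.28 without WT replicate 3. KO replicate 1 was 62.5 weeks old, as was WT replicate 1, whose Saa1 and Orm2 were at 94.1 and 59.9 CPM. Whether age plays a part in these values was not tested.

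**Figure D5:**
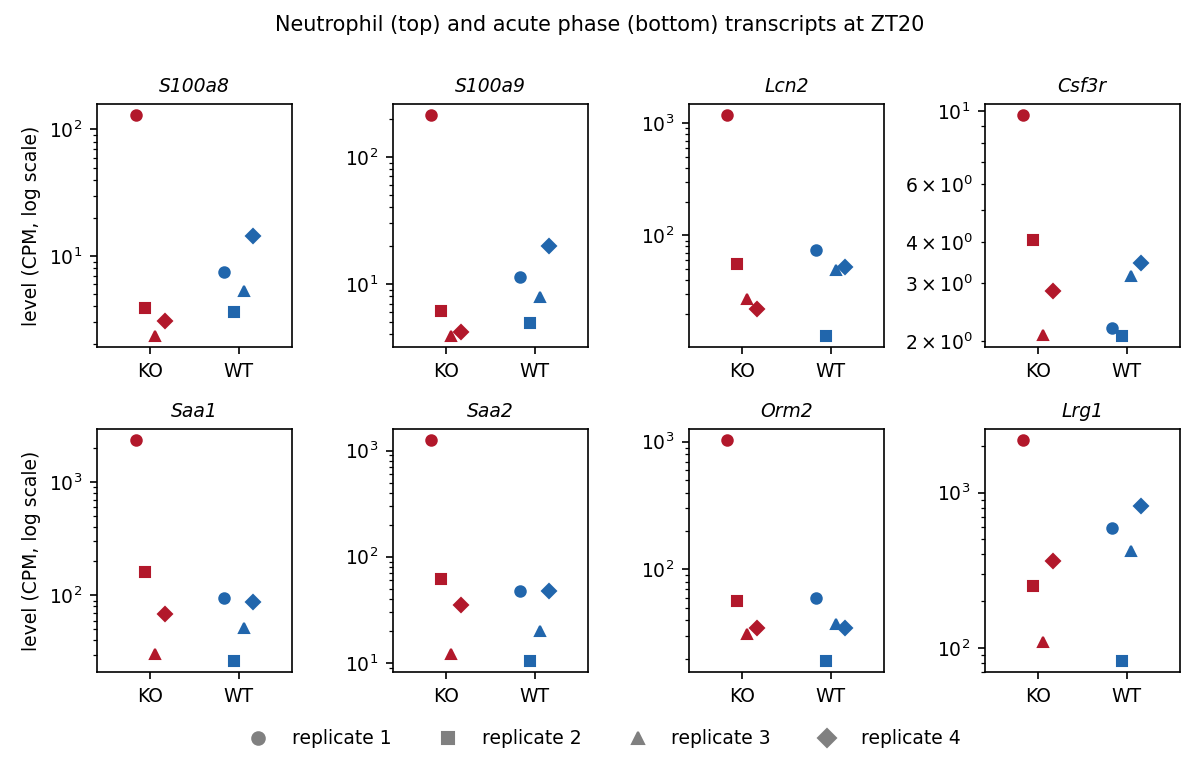
Levels (CPM, log axis) of 4 neutrophil genes (top) and 4 acute phase genes (bottom) in each mouse at ZT20, KO left and WT right, with 1 symbol per replicate number. KO replicate 1 (circle in the left column of points) is the highest of the 8 mice in every panel, and the other 7 overlap between genotypes.

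Markers of Kupffer cells, the macrophages of the liver, leaned to the KO side, but not in every KO mouse. Of 15 genes, 13 were above 0, where 48% of all genes were, with a median of 0.47. Of the 15, 0 passed the test or had an unadjusted p under 0.05, and none was at 0 in all 8 libraries. At the other times the median was -0.05. C1qb, a subunit of complement C1q made by macrophages, was at 35.2, 63.9, 60.5 and 27.7 CPM in KO livers and at 29.9, 31.03, 29.2 and 31.3 CPM in WT livers (log2 difference 0.63, SE 0.42). Clec4f, a lectin of Kupffer cells, was at 77.0, 140, 132 and 56.5 CPM in KO livers and at 63.8, 84.7, 82.8 and 47.1 CPM in WT livers (0.54, SE 0.45). In both genes KO replicates 2 and 3 were the highest of the 8 mice and KO replicate 4 was within the WT range or below it. The summed level was 489.4, 711.2, 600.4 and 325.1 CPM in KO livers (replicates 1 to 4) and 347 to 399.6 CPM in WT livers. KO replicate 4 was thus the lowest of the 8 mice. The list's median was 0.26 without KO replicate 2. Lyz2, a lysozyme of macrophages and neutrophils and the member with the smallest p, was at 93.2, 82.4, 75.0 and 38.1 CPM in KO livers and at 38.1, 52.8, 38.7 and 34.9 CPM in WT livers (0.81, SE 0.48). Whether these values reflect more macrophages was not tested.

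Major urinary protein genes, pheromone carriers of the liver that respond to growth hormone, varied widely within each genotype. Of 14 measured members, 11 were above 0 with a median of 1.06, 0 were called, and the summed level was 1149 to 8011 CPM in KO livers and 829.4 to 7583 CPM in WT livers. The median was 0.72 without KO replicate 2, 0.80 without KO replicate 3, 0.69 without WT replicate 4 and 1.45 without WT replicate 2. These genes are near-identical copies between which the counting could split reads, so single members are uncertain. Genes of cholesterol synthesis and uptake had a median of 0.23 over 22 genes, which was -0.04 without KO replicate 2, 0.37 without WT replicate 3 and 0.09 without WT replicate 4. Lymphocyte markers had a median of 0.08 over 15 genes, which ran from -0.15 without KO replicate 4 to 0.26 without WT replicate 2. Among them Gzma, a granzyme of cytotoxic cells, was at 0, 0.376, 0.309 and 0.461 CPM in KO livers and at 0.511, 1.53, 0.806 and 1.07 CPM in WT livers, with no overlap and few counts in each library. Lists of glycolysis, fatty acid synthesis, bile acids, xenobiotic metabolism, insulin and growth hormone signalling and oxidative stress had medians between -0.07 and 0.05. With 1 mouse left out these ran from -0.072 to 0.020 for glycolysis, -0.17 to 0.16 for fatty acid synthesis, -0.17 to 0.12 for bile acids, -0.094 to 0.10 for xenobiotic metabolism and -0.063 to 0.13 for oxidative stress, so the direction of these 5 turned. The insulin and growth hormone list stayed below 0, from -0.10 to -0.046. Its summed level was 2204 to 2356 CPM in KO livers and 2448 to 2876 CPM in WT livers, without overlap. No other list had sums without overlap, and how often chance gives this was not tested. A sum also rests mostly on the abundant members. The mean log2 deviation of the list from the average of the 8 libraries did overlap, at -0.31 to 0.070 in KO and -0.19 to 0.27 in WT livers. Of the 14 genes of the insulin and growth hormone list, 8 were below 0, where 52% of all genes were, and 0 were called or had an unadjusted p under 0.05. Cyp7a1, the rate-limiting enzyme of bile acid synthesis, was at 12.9, 183, 14.3 and 59.4 CPM in KO livers and at 65.2, 149, 164 and 131 CPM in WT livers (-0.91, SE 0.70), and KO replicate 2 was the highest of the 8 mice.

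Of the remaining lists, genes of the cell cycle had a median of 0.17, which was -0.19 without KO replicate 1 and 0.30 without WT replicate 4. Heat shock genes had a median of 0.15, which was -0.13 without KO replicate 1 and 0.32 without KO replicate 2. Mcm6, a subunit of the replicative helicase, was the only member of the cell cycle list with an unadjusted p under 0.05, at 5.29, 4.21, 4.32 and 3.61 CPM in KO livers and at 3.14, 4.28, 2.42 and 3.08 CPM in WT livers (0.43, SE 0.21). The glucocorticoid-responsive list, to which Dusp1 belongs, had 10 of 14 genes below 0 with a median of -0.09, and all 14 were below 0 with a median of -0.40 without KO replicate 1. Without KO replicate 2, 3 or 4 this list had 7 genes above and 7 below 0, with medians of -0.014, -0.038 and -0.0021. With 1 WT mouse left out its median ran from -0.19 without replicate 4 to -0.0069 without replicate 1. Genes of the unfolded protein and integrated stress response had a median of -0.11, which was 0.031 without KO replicate 3. Markers of sinusoidal endothelium had a median of -0.07 (0.066 without WT replicate 4), those of hepatocytes 0.06 (-0.023 without KO replicate 1), and those of cholangiocytes, the cells of the bile ducts, 0.24, which was 0.06 without KO replicate 2 and 0.06 without KO replicate 3. Of erythroid markers 5 of 8 were measured, with a median of -0.00 (0.94 without WT replicate 4). Of adipocyte markers 3 of 8 were measured, with a median of 0.12 (0.0086 without KO replicate 3 and 0.43 without WT replicate 4). Of these, 2 were above 0 and 0 were called. Their mean log2 deviation from the average of the 8 libraries was 0.18 to 0.26 in KO livers and -0.62 to 0.17 in WT livers. The summed level of the list was 41.7 to 71.0 CPM in KO livers and 23.9 to 50.1 CPM in WT livers.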

How the data were processed

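Liver RNA of 48 mice, 25 WT and 23 KO, was selected by poly(A) and made into stranded libraries with 13 PCR cycles over 3 days that could not be assigned to samples, per the labels' protocols. Reads were handled with CASAVA and aligned with STAR 2.4.1d, with mm9 as the build, per the submitters' processing notes. The deposited values are whole read counts per gene, not normalised by the authors; the tool that counted them is not given in the sources used here. The table gave 22354 genes. Alb was left out of library sizes and tests because its values were whole multiples of 1311.614 reads, within 0.00058 of a step. Totals lay between 12873535 and 13009797 counts in the 8 libraries of ZT20, so depth was nearly equal and limits mainly genes of a few counts.

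Counts were fitted with edgeR 4.0.16 in R 4.3.3 over all 48 libraries, with 1 mean for each of 12 groups of genotype and time, TMM scaling, edgeR's default filter on low counts (13646 genes kept) and the quasi-likelihood test on 36 residual degrees of freedom. Contrasts were KO minus WT at ZT20, the mean of KO minus WT over ZT0 to ZT16, and the first minus the second. P-values were adjusted by Benjamini-Hochberg over all genes tested, with a threshold of 0.05, and intervals are 95%. CPM used TMM-scaled library sizes. The labels give each library as a separate mouse. Genes named in the text are the clock genes, the 10 with the smallest p in each direction and an average log2 CPM not under 0, the member of each list with the smallest p, the 10 called genes in each direction with the smallest p at the other times, and further list members given as examples. A few of the genes so chosen are not reported here. The members and lists were chosen with earlier results of these data known. Of 467 list entries, 462 were matched by symbol, 1 by identifier, and 4 were not found. GC content came from an annotation table for 97.6% of tested genes. Alternatives were limma-voom 3.58.1, DESeq2 1.42.0, RLE scaling, no filter, robust spread, body weight, GC slope or replicate number as covariates, only the 8 libraries of ZT20, and each library left out. The fitting code was also run on simulated counts with known ZT20 differences, to check the direction and size it returned. Those counts were independent, with the same baseline in all groups and no outlying mouse. The check therefore says nothing on the lack of calls at ZT20.

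Both genotypes at ZT20 carry replicate numbers 1 to 4 with the same age for the same number. Upstream sequences are from the RefSeq promoter table of GRCm38.p6, joined by symbol or synonym.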

Additional observations from a re-analysis of the deposited data

Results flagged for a closer look

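In 6 of 150 sets of 4 mice (75 named genes in each genotype at ZT20), 1 mouse lay far from the other 3 on the log2 CPM scale by Dixon's test at 95%, where chance gives about 1 in 20 sets. Cry1 was high in KO replicate 3 at 63.2 CPM, with 42.1 to 43.4 CPM in the other 3. Disp2 was low in KO replicate 2 at 0.526 CPM, with 2.01 to 2.45 CPM in the others, and its log2 difference was -1.15 without that mouse. In WT livers, replicate 4 was high for Mgp at 11.2 CPM, with 3.59 to 3.79 CPM in the others, and for the beta-globin gene Hbb-b2 at 23.6 CPM, with 6.19 to 7.45 CPM in the others. WT replicate 4 was low for Angptl4 at 177.9 CPM, with 346 to 376 CPM in the others. Cidec was high in WT replicate 3 at 18.5 CPM, with 5.43 to 6.45 CPM in the others.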

How the results depend on the processing

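At ZT20 0 genes were called in the main setting and in each of the 21 others. DESeq2 and limma-voom are among these 21, and the rest used edgeR's quasi-likelihood test. Each fit without 1 of the 40 libraries of the other times also called 0 genes at ZT20. The number with unadjusted p under 0.05 ran from 146 with only the 8 libraries of ZT20 to 602 with the GC slope in the model, where the smallest adjusted p was 0.17, and it was 498 without KO replicate 3 against 251 in the main fit. Of 1346 values counted for the 75 named genes under the alternatives, 1313 kept their direction, and the 33 of opposite sign, in 15 genes, all came from leaving out 1 mouse of ZT20. These values do not cover each of the 75 genes in all 21 settings, and changes of sign outside them were not counted. With 1 mouse left out, the log2 difference ran from -0.082 to 0.067 for Arntl, -0.39 to 0.027 for Bhlhe41, -0.54 to 0.21 for Clock, -0.26 to 0.10 for Cry2, -0.98 to 0.16 for Gbp10, -0.38 to 0.20 for Ifit1, -0.54 to 0.071 for Il20rb, -0.43 to 3.15 for Lcn2, -0.092 to 0.84 for Npas2, -0.85 to 0.019 for Nr1d2, -0.32 to 0.61 for Per1, -0.51 to 0.16 for Rora, -0.39 to 1.08 for Serpinb1a, -0.26 to 0.12 for Usp18 and -0.081 to 0.060 for Zc3hav1. Over the other 5 times the 266 calls became 563 with DESeq2, 46 with body weight in the model (median of the lower genes at ZT20 -0.53) and 95 to 1108 with 1 of 40 libraries left out. DESeq2 called 4 genes for the departure of ZT20 from the other times, Ltf, Dcaf12l1, 7SK and U1, each with adjusted p = 0.0331, where edgeR called 0 (575 with unadjusted p under 0.05). The cause of these changes was not tested.

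Same-numbered KO and WT mice of ZT20 deviated from their group means with correlations of 0.352, 0.142, -0.0479 and 0.226 for replicates 1 to 4. The same-numbered WT mouse was the most correlated WT mouse for KO replicates 2 and 4. For KO replicates 1 and 3 it was another WT mouse, with correlations of 0.553 and 0.685. These values do not settle whether the numbers pair the mice. They were not taken as pairs because the labels name no shared litter, batch or day. With the replicate block at ZT20, 0 genes were called and 239 had an unadjusted p under 0.05, and 0 and 595 with the GC slope as well. The paired difference in weight was -0.2 g (exact permutation test, two-sided p = 0.375, where 0.125 is the smallest possible).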

Other observations

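Some transcripts were present in 1 library almost alone. Dmbt1, a secreted scavenger receptor cysteine-rich protein of epithelia, was at 125 CPM in KO replicate 3 and at 0 in the 3 other KO livers, and at 0 in WT livers except 0.143 CPM in WT replicate 4. The small nuclear RNA symbol U1 was at 15.6 CPM in WT replicate 2, the library in which 7SK was also high. Fewest genes stood 4-fold apart from the other mice of their genotype in KO replicate 4, with 0 above and 1 below, against 16 above and 24 below in KO replicate 1 and 2 above and 79 below in WT replicate 2.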
